A study of Mus musculus with 12 samples.

Results

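Gene expression was compared between lung tumours of mice given entinostat alone and control tumours of the same mouse model. The libraries were chosen by title, 3 labelled ent and 3 labelled Ctrl, and make up 6 of the 12 libraries of the series. Entinostat blocks histone deacetylases (HDACs) of class I; the mice took it by oral gavage, 15 mg/kg each day over 28 days. The control libraries are labelled Ctrl alone; the protocol speaks of a vehicle arm and lists both methylcellulose and a rat IgG2a isotype antibody as control treatments, and the labels do not tell which of these the control mice received. The 3 combination libraries, from mice given entinostat and anti-PD-1 antibody at 10 mg/kg over 4 weeks, and the 3 anti-PD-1 libraries were used for a second look at the drug in separate samples. PD-1 restrains T cells. All 12 tumours shared the Rb1/Trp53/MycT58A genotype (RPM), a model of small cell lung cancer in which Cre deletes Rb1 and Trp53 and switches on a Myc allele carrying T58A. Cre came from the adenovirus Ad5CGRP-Cre, put into the trachea at 8 weeks of age, in which the promoter of the neuroendocrine gene Cgrp drives the recombinase. The labels give neither the age at sampling nor whether each library came from its own mouse, so the p-values measure the spread between these libraries. Frozen tumour tissue was dissected with a scalpel, so each library is a bulk mixture of tumour and adjoining cells.

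HDACs remove acetyl groups from histone tails, and blocking them leaves chromatin more acetylated, which raises some genes and lowers others. Class I enzymes act in repressor complexes that silence, among others, genes of alternative cell states. Small cell lung cancer is a fast-dividing neuroendocrine tumour: it expresses neuronal and secretory granule genes, divides without the RB and p53 checkpoints, and in this model is driven by MYC, a transcription factor of growth and biosynthesis genes.

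Total counts were 31987261 to 40469275 in the entinostat libraries and 40534618 to 54001886 in the control libraries. Values are given in CPM, counts scaled to library size with TMM factors. The structural RNAs Rpph1, Rn45s and Rmrp took 17.8% ± 2.22 of the counts in entinostat libraries and 11.4% ± 3.08 in control libraries (SD, n = 3 each). Along the first principal component of all 12 libraries, which held 27.2% of the variance, control library 1 stood apart from the others. Neuroendocrine genes were expressed in every library: the 24 markers listed summed to 976 to 1780 CPM in entinostat tumours and 2017 to 2499 CPM in control tumours. Ncam1, a neural adhesion protein used to diagnose the tumour, had 138 to 259 CPM in entinostat tumours and 156 to 273 CPM in control tumours. Rb1 had 26.6, 38.7 and 50.9 CPM in entinostat tumours and 30.1, 49.6 and 46.05 CPM in control tumours. Trp53 had 10.95, 13.85 and 11.8 CPM in entinostat tumours and 15.8, 13.5 and 20.04 CPM in control tumours. These levels do not test the labels, since all groups carry the deletions and a gene-level count includes transcripts of the undeleted cells and of the parts of each gene left in place.

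More genes fell than rose with entinostat. Of 22738 genes in the table, 17426 had enough counts to be tested, and 919 of these (5.27%) differed between entinostat and control tumours at an adjusted p under 0.05 in edgeR's quasi-likelihood test. Of these calls, 226 (1.3% of the genes tested) were higher with entinostat, with a median log2 fold change of 1.57, and 693 (3.98%) were lower, with a median of -1.06. Among the higher genes 61 changed by a log2 value of at least 2, and among the lower genes 25 did. Over all tested genes the median log2 fold change was 0.00055. The 3 entinostat libraries lay wholly above or wholly below the 3 control libraries in 5013 genes (28.8%), among them 914 of the 919 calls.

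**Figure D1:**
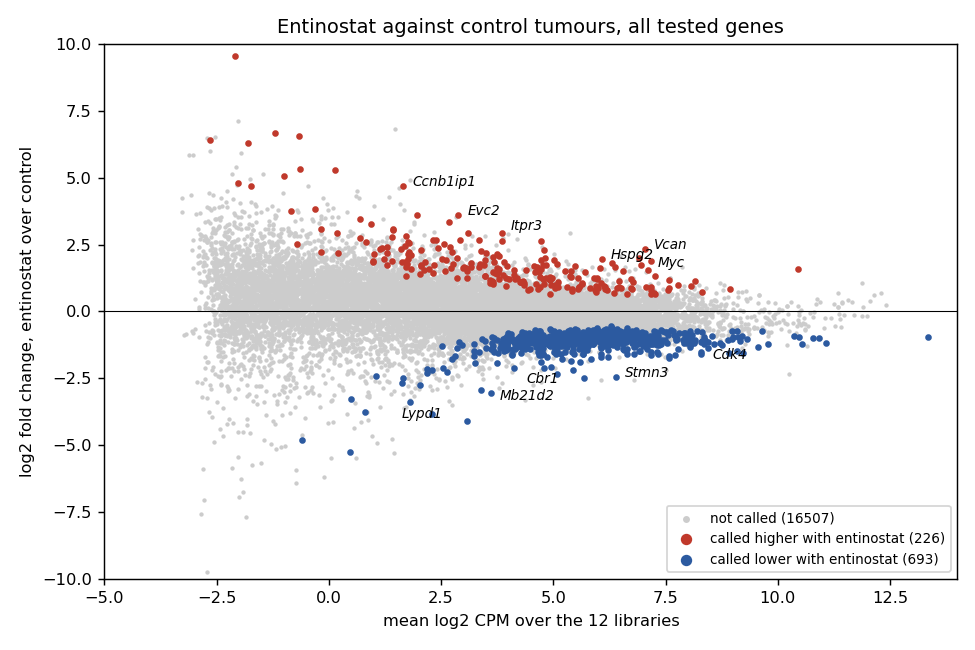
Log2 fold change of entinostat over control tumours against mean log2 CPM over the 12 libraries, with a point for each of the 17426 tested genes. The 226 genes called higher (red) spread over all expression levels and reach larger changes, and the 693 called lower (blue) are mostly well expressed genes with changes near the median of -1.06.

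The size of this call list depends strongly on single libraries and on the groups that lend the estimate of spread. With the replicate number of the titles as a block 321 genes were called, 69 higher and 252 lower. A fit to the 6 entinostat and control libraries alone called 0 genes with 3581 at an unadjusted p under 0.05, whereas DESeq2 on all 12 libraries called 2396. Leaving out entinostat library 1, 2 or 3 left 204, 42 and 2 calls, and leaving out control library 1, 2 or 3 left 250, 550 and 1010. Scaling by upper quartile instead of TMM shifted the median of all genes to 0.20 and called 325 genes higher and 236 lower, so the excess of falling genes depends on the scaling. All 919 genes kept their sign in each of these fits, which the choice of genes largely fixes, since the groups do not overlap in 914 of them. Cbr1 and Plxnd1 passed in all 6 fits that left out a library, and the counts for gene groups given here are at most 1 without entinostat library 3.

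Of 40 mitosis genes listed and tested, 9 (22.5%, against 3.98% of all tested genes) fell with entinostat and 0 rose, with a median log2 fold change of -0.48. Of 40 DNA replication genes 10 fell (25%) and 0 rose, with a median of -0.62. Under upper quartile scaling 3 mitosis genes and 4 replication genes fell, with list medians of -0.26 and -0.40. Cdk4, the kinase that pairs with cyclin D to start the cell cycle, had 238, 257 and 202 CPM in entinostat tumours, against 763, 622 and 697 CPM in control tumours. Its log2 fold change was -1.58 ± 0.21 (SE; adjusted p = 0.0104), and the highest entinostat library lay below the lowest control library by more than the spread within either group. Cdk1, the kinase that drives entry into mitosis, had 125, 110.2 and 114 CPM in entinostat tumours and 279.6, 249.8 and 293 CPM in control tumours (log2 fold change -1.23 ± 0.22, adjusted p = 0.0174). The other mitotic genes that fell furthest past the threshold act at the end of metaphase: Ube2c and Cdc20, parts of the anaphase-promoting complex pathway, with log2 fold changes of -1.06 ± 0.20 and -0.93 ± 0.19, and Bub3, a spindle checkpoint protein, with -0.97 ± 0.18. Ccnb2, a B-type cyclin, fell by 0.84 on the log2 scale with an SE of 0.18. Among the replication genes, Pcna, the sliding clamp of the replication fork, had 223, 178 and 200.1 CPM in entinostat tumours and 553, 427 and 419 CPM in control tumours (log2 fold change -1.22 ± 0.23, adjusted p = 0.0198). Gins1 and Gins2, subunits of the replicative helicase, fell by 1.62 and 1.30 on the log2 scale (SE 0.27 and 0.25), Rfc4, a clamp loader subunit, by 1.03 (SE 0.17), and Cdc45, a further helicase subunit, by 0.84 (SE 0.18). With the replicate block 3 mitosis genes and 4 replication genes passed, and Cdc20, Ccnb2 and Cdc45 did not (adjusted p = 0.0584, 0.0600 and 0.0615). Without entinostat library 1, 2 or 3 the mitosis count was 4, 0 and 0 and the replication count 4, 0 and 0, and without control library 1 they were 1 and 2. Cdkn1b, which encodes the cell cycle inhibitor p27, fell as well, at 79.3, 89.3 and 98.7 CPM in entinostat tumours against 168, 285 and 171 CPM in control tumours (log2 fold change -1.22 ± 0.21, adjusted p = 0.0169).

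The promoters of several of these genes share short elements known from cell cycle promoters, and they are shown so that the letters can be compared between genes that moved together. The CHR element (TTTGAA) binds the DREAM and MuvB complexes and the CCAAT box binds NF-Y. Sequences are from RefSeq on GRCm38.p6, the 200 bases before the annotated start site, 5′ to 3′ on the gene's strand. Capitals mark the CHR as TTTGAA and, on the other strand, as TTCAAA, and the box as CCAAT and, on the other strand, as ATTGG, and adjoining or overlapping matches run together. Cdk1 is shown at chr10:69352913-69353112 (minus strand), Cdc20 at chr4:118437344-118437543 (minus strand), Ube2c at chr2:164769729-164769928 (plus strand) and Bub3 at chr7:131560170-131560369 (plus strand).
Cdk1: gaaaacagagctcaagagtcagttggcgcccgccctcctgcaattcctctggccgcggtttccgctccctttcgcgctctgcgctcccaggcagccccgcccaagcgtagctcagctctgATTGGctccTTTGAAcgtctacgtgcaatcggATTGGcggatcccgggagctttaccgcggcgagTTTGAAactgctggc
Cdc20: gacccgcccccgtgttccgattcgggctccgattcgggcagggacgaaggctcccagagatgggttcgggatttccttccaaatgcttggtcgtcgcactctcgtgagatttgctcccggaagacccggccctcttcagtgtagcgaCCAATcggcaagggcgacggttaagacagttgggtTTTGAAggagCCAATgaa
Ube2c: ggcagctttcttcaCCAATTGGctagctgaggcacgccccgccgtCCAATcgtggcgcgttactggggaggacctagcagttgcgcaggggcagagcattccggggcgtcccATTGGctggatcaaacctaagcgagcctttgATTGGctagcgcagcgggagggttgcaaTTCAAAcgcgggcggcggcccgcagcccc
Bub3: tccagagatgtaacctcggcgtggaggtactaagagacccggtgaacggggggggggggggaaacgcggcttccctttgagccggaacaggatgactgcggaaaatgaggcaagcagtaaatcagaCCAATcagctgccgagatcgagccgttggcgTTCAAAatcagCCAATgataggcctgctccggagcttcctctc

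Over a window of 250 bases before to 50 after the start, 23 of the 34 mitosis genes with a RefSeq promoter held a CHR match (67.6%), against 4893 of all 27025 promoters in the RefSeq table (18.1%). A CCAAT match was found in 27 of the 34 (79.4%), against 37.9% of all promoters. Of the 32 replication genes with a promoter 4 held a CHR match (12.5%) and 20 a CCAAT match (62.5%). Of the 17426 tested genes 13344 have a promoter in the table, too few to stand for all; of these 12.7% held a CHR match and 38.3% a CCAAT match. These shares are of whole lists, whether a gene fell or not. Of the mitosis genes that fell, Birc5 and Mad2l1 held neither match in this window, and Ndc80 held a CHR match without a CCAAT match. A match is a description of letters in the window and not a bound site. Cdk4 is shown for another element, the E-box CACGTG, which MYC and MAX bind and which reads the same on both strands. Its 200 bases, chr10:127063335-127063534 (plus strand, GRCm38.p6), hold 4 E-boxes, in capitals, at positions -172, -118, -98 and -11 from the start, and 7.24% of all promoters in the table hold at least 1, as do 9.55% of those of tested genes.
Cdk4: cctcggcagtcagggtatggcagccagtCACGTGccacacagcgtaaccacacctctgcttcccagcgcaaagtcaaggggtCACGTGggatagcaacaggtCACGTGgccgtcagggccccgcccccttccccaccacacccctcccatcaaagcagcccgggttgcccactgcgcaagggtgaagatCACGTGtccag

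Myc had 183, 244 and 273 CPM in entinostat tumours, against 91.8, 50.6 and 99.7 CPM in control tumours (log2 fold change 1.53 ± 0.32, adjusted p = 0.0248; 0.0580 with the replicate block). Every entinostat library lay above every control library. The count does not tell the activated allele from the endogenous gene. Of 36 growth targets and ribosome biogenesis genes, 3 fell (8.33%, against 3.98% of all tested genes) and 0 rose. The median was -0.47, with -0.13 without control library 1 and -0.25 under upper quartile scaling. They were Cdk4, Nme1, a nucleoside diphosphate kinase, at -1.19 ± 0.29, and Fbl, the nucleolar methyltransferase fibrillarin, at -0.76 ± 0.18. Under upper quartile scaling and with the replicate block Cdk4 alone of the 3 passed. With the block Nme1 and Fbl had adjusted p of 0.0575 and 0.0756. The list of cytosolic ribosomal proteins gave 2 falls among 51 genes (3.92%, near the 3.98% of all tested genes), Rpl7 and Rplp0, with log2 fold changes of -0.94 ± 0.20 and -0.98 ± 0.24, and a median of -0.18, which turned to 0.01 under upper quartile scaling. Neither gene passed with the replicate block (adjusted p = 0.0584 and 0.0781). Genes of this family have many processed pseudogenes, so their counts are uncertain.

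Clustered histone genes are transcribed in S phase and most of their mRNAs end in a stem-loop rather than a poly(A) tail, while the libraries were made from poly(A) RNA. Of 40 listed genes 38 were in the table and tested, 15 fell (39.5%, against 3.98% of all tested genes) and 0 rose. All 38 had a negative log2 fold change, with a median of -0.75. Hist1h3a, which encodes histone H3, had 30.3, 36.5 and 39.3 CPM in entinostat tumours, against 95.0, 87.5 and 71.8 CPM in control tumours (log2 fold change -1.26 ± 0.17, adjusted p = 0.0104). Hist1h4j and Hist1h4d, which encode histone H4, fell by 1.20 and 1.23 on the log2 scale (SE 0.19 and 0.20), Hist1h2bk by 1.04 (SE 0.18) and the linker histone gene Hist1h1e by 1.07 (SE 0.20). In the fit with the replicate block 8 passed. Upper quartile scaling also gave 8, with a median of -0.54. Without entinostat library 1, 2 or 3 the count was 5, 1 and 0, and without control library 1 it was 6. Near-identical copies make the split of reads between single histone genes uncertain. In the windows around their starts, 31 of 35 promoters held a CCAAT match and 18 a CHR match.

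The respiratory chain makes ATP in mitochondria from nuclear and mitochondrial gene products. Of 52 nuclear subunit genes listed and tested, 23 fell (44.2%, against 3.98% of all tested genes), 0 rose, and 51 had a negative log2 fold change, with a median of -0.87. The genes with the smallest adjusted p came from complexes I, IV and V: Ndufb10, Cox6a1 and Cox5b, and Atp5o and Atp5b of the ATP synthase. Atp5b, its catalytic beta subunit, had 592, 645 and 569.6 CPM in entinostat tumours, against 1620, 1650 and 1236 CPM in control tumours (log2 fold change -1.32 ± 0.27, adjusted p = 0.0230). Each entinostat library was below the lowest control library, and the entinostat libraries differed from each other less than the control libraries did. Cox6a1, a subunit of cytochrome c oxidase, had 81.5, 84.1 and 74.5 CPM in entinostat tumours and 174, 214 and 141 CPM in control tumours (log2 fold change -1.14 ± 0.20, adjusted p = 0.0162), and Ndufb10, of complex I, fell by 1.09 (SE 0.18). Summed over the 52 genes, entinostat tumours had 6243 to 7196 CPM and control tumours 9429 to 12980 CPM. The replicate block gave 11 calls in the list. Without entinostat library 1, 2 or 3 there were 3, 0 and 0 calls, and without control library 1 or 2 there were 4 and 6. Upper quartile scaling gave 7, with a median of -0.67. Mitochondrial ribosomal proteins, which make the subunits encoded in the organelle, had 7 falls among 45 genes (15.6%, against 3.98% of all tested genes). Their median was -0.73, with all 45 values negative. Mrps26 had the smallest adjusted p (log2 fold change -1.11 ± 0.20, adjusted p = 0.0193) and was the gene left with the replicate block, which gave 1 call. Lars2, the mitochondrial leucyl-tRNA synthetase, was the 1 call among 27 tRNA synthetases (3.7%, near the 3.98% of all tested genes). It had 130.3, 124 and 103 CPM in entinostat tumours against 458, 300.1 and 334 CPM in control tumours (log2 fold change -1.61 ± 0.22, adjusted p = 0.0104).

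The proteasome degrades tagged proteins and the spliceosome removes introns. Among 37 proteasome subunits 8 fell (21.6%, against 3.98% of all tested genes) and 0 rose, and the median log2 fold change was -0.88. Psma4, of the proteolytic core, had 98.6, 111 and 88.1 CPM in entinostat tumours, against 343, 287.5 and 221 CPM in control tumours (log2 fold change -1.51 ± 0.24, adjusted p = 0.0120). Of 34 spliceosome proteins 10 fell (29.4%, against 3.98%), 0 rose and the median was -0.68. Sf3b5, of the U2 particle, fell by 1.06 (SE 0.19) and the Sm proteins Snrpd2, Snrpd3 and Snrpf by 1.02, 0.97 and 0.998 (SE 0.20, 0.19 and 0.20). Of 26 endoplasmic reticulum genes the chaperones Calr, Pdia3 and Hspa5 fell (11.5%, against 3.98% of all tested genes), with log2 fold changes of -0.96 ± 0.18, -0.81 ± 0.16 and -0.79 ± 0.21. With the replicate block 3 proteasome, 4 spliceosome and 1 endoplasmic reticulum gene passed, and without control library 1 the counts were 2, 3 and 1. Under upper quartile scaling they were 5, 3 and 1. With the block Pdia3 and Hspa5 had adjusted p of 0.0518 and 0.0721. In lipid metabolism 4 of 26 tested genes fell (15.4%, against 3.98% of all tested genes), all of the sterol branch. They were the enzymes Idi1, Mvd and Nsdhl and the regulator Insig1, between -1.03 and -1.52. Of these, 0 passed with the replicate block (adjusted p 0.0729 to 0.103), without control library 1 or under upper quartile scaling. Without control library 1 Mvd and Nsdhl had log2 fold changes of -0.87 and -0.91. In glycolysis, Pgk1 and Gapdh fell among 26 genes (7.69%, against 3.98% of all tested genes). Their log2 fold changes were -1.22 ± 0.28 and -0.75 ± 0.18 (adjusted p = 0.0686 and 0.0729 with the block). Under upper quartile scaling 0 genes of this list passed. In amino acid metabolism Gamt, which makes creatine, had 3.41, 2.69 and 2.20 CPM in entinostat tumours against 18.2, 10.2 and 8.40 CPM in control tumours (log2 fold change -2.14 ± 0.40, adjusted p = 0.0198).

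**Figure D2:**
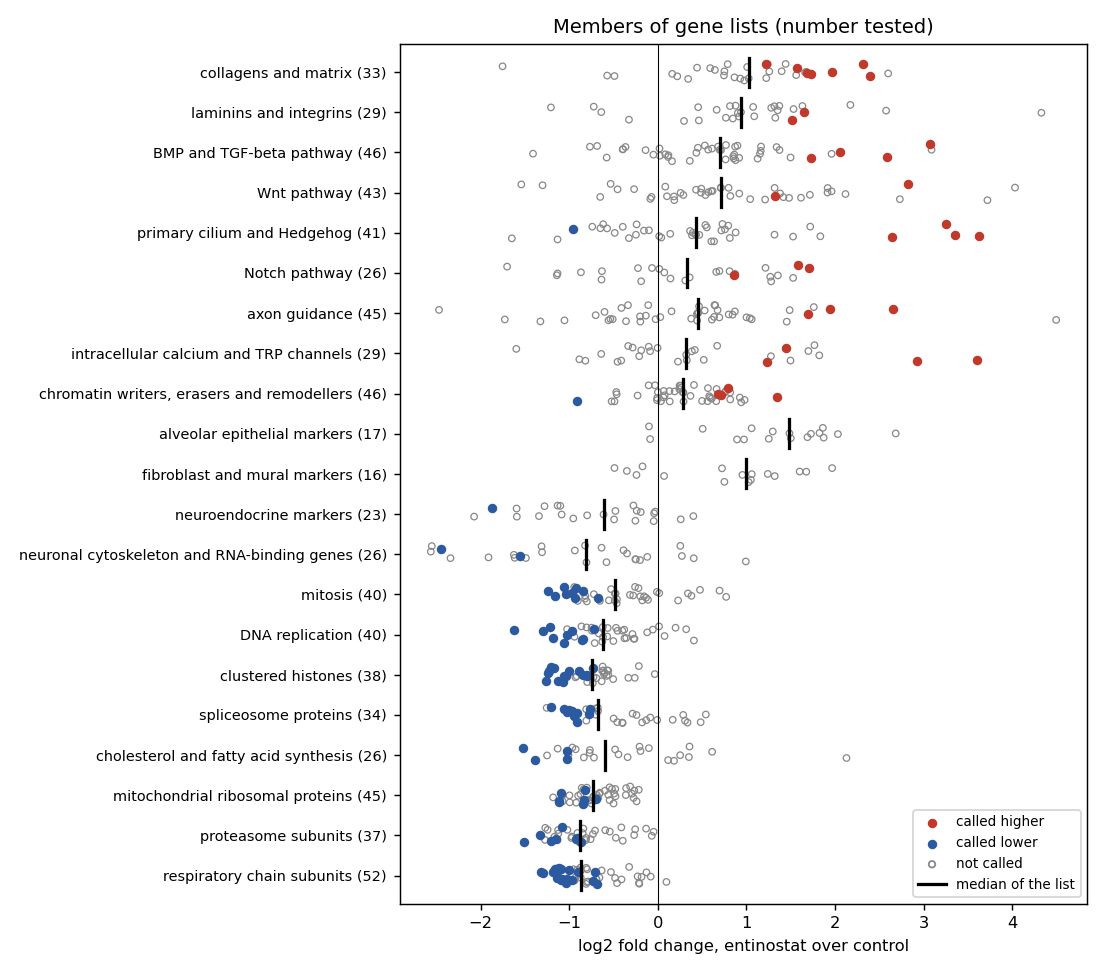
Log2 fold change of entinostat over control tumours for each tested member of 21 gene lists, with members called higher in red, called lower in blue, not called as open circles and the list median as a bar. The biosynthetic and cell division lists at the bottom lie to the left with medians between -0.48 and -0.88, and the matrix list at the top has a median of 1.03.

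Several neuronal genes were among the largest falls, while 1 of 23 tested neuroendocrine markers passed. Stmn3, a neuronal microtubule-destabilising stathmin, had 44.1, 43.5 and 48.5 CPM in entinostat tumours, against 412, 199 and 132 CPM in control tumours (log2 fold change -2.45 ± 0.41, adjusted p = 0.0149), and Stmn1, its broadly expressed relative, fell by 1.55 (SE 0.33). The entinostat libraries of Stmn3 were close to each other and the control libraries ranged widely, all of them higher. Of 26 neuronal cytoskeleton and RNA-binding genes these 2 passed (7.69%, against 3.98% of all tested genes called lower), and the median of -0.81 became -0.26 without control library 1. Scg5, a chaperone of the prohormone convertase PC2 in secretory granules, had 18.6, 29.6 and 42.8 CPM in entinostat tumours and 75.8, 141 and 117 CPM in control tumours (log2 fold change -1.87 ± 0.35, adjusted p = 0.0198). It was the 1 call among the neuroendocrine markers (4.35%, near the 3.98% of all tested genes), of which 21 were negative with a median of -0.61. Without entinostat library 1, 2 or 3 this median was -0.25, -0.32 and -1.32, without control library 2 it was -0.39, and with the alveolar marker covariate -0.26. Ret, the receptor tyrosine kinase for GDNF family ligands, had 0.791, 1.14 and 1.04 CPM in entinostat tumours, against 5.89, 8.82 and 4.43 CPM in control tumours (log2 fold change -2.68 ± 0.50, adjusted p = 0.0194). Further large falls were the adhesion gene Ncam2 (-2.75 ± 0.66), Lypd1, a GPI-anchored modulator of nicotinic receptors (-3.39 ± 0.88), the tubulin gene Tubb2a (-2.34 ± 0.61), the pacemaker channel gene Hcn4 (-2.26 ± 0.46), the growth factor gene Ptn (-2.18 ± 0.48) and Tagln3 (-2.10 ± 0.38). Without control library 1, where Lypd1 had 37.2 CPM, its log2 fold change was -1.64 and it did not pass, and Tubb2a was at -1.42. With the replicate block Lypd1, Tubb2a and Ptn did not pass (adjusted p = 0.120, 0.0798 and 0.0605). Ncam2 and Lypd1 were the calls among 25 neural adhesion genes (8%, against 3.98% of all tested genes called lower). The median of this list was -0.86, and -0.17 without control library 1. Neurod1, a neuronal transcription factor expressed in a subtype of these cancers, differed more between tumours of a group than between groups. It had 62.5, 11.4 and 42.5 CPM in entinostat tumours and 490.2, 5.65 and 10.8 CPM in control tumours, so no difference between treatments was detectable (adjusted p = 0.424). In bulk tissue, fewer cells of a type and less RNA per cell cannot be told apart.

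Collagens and proteoglycans build the extracellular matrix. Of 33 collagen and matrix genes 7 rose (21.2%, against 1.3% of all tested genes), 0 fell, and in 20 every entinostat library was above every control library, where 28.8% of all tested genes did not overlap in either direction. The list's median log2 fold change was 1.03. Hspg2, the basement membrane proteoglycan perlecan, had 143, 124 and 92.5 CPM in entinostat tumours, against 42.6, 18.9 and 30.3 CPM in control tumours (log2 fold change 1.97 ± 0.37, adjusted p = 0.0198). Vcan, the proteoglycan versican, had 103, 279.5 and 271 CPM in entinostat tumours and 25.8, 71.3 and 33.9 CPM in control tumours (log2 fold change 2.32 ± 0.53, adjusted p = 0.0331), so that the lowest entinostat library was the 1 close to the control range. The collagen chain genes Col27a1, Col6a1 and Col11a1 rose by 2.39 ± 0.39, 1.57 ± 0.31 and 1.68 ± 0.39. The list also holds Col3a1 and Col1a2, the fibrillar collagens of fibroblasts, which did not pass: Col3a1 had 305, 245 and 322 CPM in entinostat tumours and 130.1, 141 and 157 CPM in control tumours (adjusted p = 0.316). Among 29 laminins and integrins Lama5 and Lamb2 rose (6.9%, against 1.3% of all tested genes), at 1.65 ± 0.38 and 1.52 ± 0.38. Lama5 passed in 0 of the 6 fits that left out a library. With offsets for transcript length 0 genes of this list passed. In a list of 33 ADAMTS and matrix metalloproteinase genes Adamts14, Adamts20, Adamts9 and Adamts6 rose, between 1.46 and 3.06. These were 12.1% of the list, against 1.3% of all tested genes. The 1 fall, Adamts18 at -3.28 ± 0.85, was 3.03%, below the 3.98% of all tested genes. It did not pass under upper quartile scaling. Among the matrix genes 4 passed with the replicate block, and with offsets for transcript length 2 did. Hspg2 was not among these 2 (adjusted p = 0.0558 with the offsets). Without entinostat library 1, 2 or 3 there were 2, 0 and 0, and without control library 1 or 2 there were 3 and 4. The 16 fibroblast and mural markers, 0 of which passed, summed to 957 to 1118 CPM in entinostat tumours and 533 to 679 CPM in control tumours. The list shares Col1a1, Col1a2, Col3a1, Dcn and Lum with the matrix list, and the part of these cells in the matrix result was not tested. Vcan, Lamb2, Adamts9, Adamts6 and Adamts18 did not pass with the replicate block (adjusted p 0.0584 to 0.0781). Cd44, a receptor for the matrix glycan hyaluronan, rose as the 1 call among 19 mesenchymal transition genes (5.26%, against 1.3% of all tested genes). Its log2 fold change was 1.30 ± 0.31 (adjusted p = 0.0385, and 0.0729 with the block).

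Of 41 primary cilium and Hedgehog genes tested, 4 rose (9.76%, against 1.3% of all tested genes). In the same list 1 fell (2.44%, below the 3.98% of all tested genes). Evc and Evc2 encode partner proteins that carry the signal from Smoothened at the cilium base, Boc is a co-receptor for Hedgehog ligands, and Gli1 is a transcription factor and target of the pathway. Evc2 had 16.5, 18.6 and 17.6 CPM in entinostat tumours, against 2.60, 1.08 and 0.582 CPM in control tumours (log2 fold change 3.62 ± 0.66, adjusted p = 0.0193). Evc had 8.13, 14.03 and 19.6 CPM in entinostat tumours and 2.43, 0.931 and 0.709 CPM in control tumours (log2 fold change 3.35 ± 0.72, adjusted p = 0.0280). Both were several times higher in each entinostat library than in the highest control library. Gli1 had 2.24, 3.19 and 9.23 CPM in entinostat tumours and 0.607, 0.538 and 0.380 CPM in control tumours (log2 fold change 3.25 ± 0.65, adjusted p = 0.0225). Boc had 13.98, 73.8 and 90.8 CPM in entinostat tumours and 6.83, 9.25 and 12.5 CPM in control tumours (log2 fold change 2.64 ± 0.63, adjusted p = 0.0361). Ift46, of the transport machinery inside cilia, was the fall (-0.96 ± 0.25), and it did not pass under upper quartile scaling. With the replicate block Evc2 and Gli1 passed, at adjusted p of 0.0428 and 0.0482, and Evc, Boc and Ift46 did not, at 0.0668, 0.0685 and 0.0944. Without control library 1, 2 or 3 the rises numbered 2, 1 and 2, and without entinostat library 2 or 3 they numbered 0. Evc and Evc2 are neighbours that are transcribed away from each other, with 1597 bases between their start sites on GRCm38.p6. Their sequences, 200 bases before each start from RefSeq, are shown because this intervening stretch is shared by a pair of genes that rose together. Capitals mark TGCGCA, an NRF1 half-site that reads the same on both strands and is found in 8.06% of all promoters in the table and in 12.8% of those of tested genes. Evc is at chr5:37336882-37337081 (minus strand) and Evc2 at chr5:37338278-37338477 (plus strand).
Evc: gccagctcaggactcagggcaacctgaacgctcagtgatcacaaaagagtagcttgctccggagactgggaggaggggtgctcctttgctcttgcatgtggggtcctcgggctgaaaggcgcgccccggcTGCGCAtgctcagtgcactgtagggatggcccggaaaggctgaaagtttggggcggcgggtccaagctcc
Evc2: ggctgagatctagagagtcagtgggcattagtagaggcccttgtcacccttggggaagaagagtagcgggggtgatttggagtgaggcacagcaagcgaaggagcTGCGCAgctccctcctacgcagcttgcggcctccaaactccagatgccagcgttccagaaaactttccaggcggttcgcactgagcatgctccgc

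Other signalling lists held between 1 and 4 rises and 0 falls each. The rises made up 8.7% of the BMP and TGF-beta list, 4.65% of Wnt, 11.5% of Notch and 4.55% of YAP1 and TEAD. They made up 6.67% of axon guidance and 13.8% of calcium genes, against 1.3% of all tested genes. In the BMP and TGF-beta pathway 4 of 46 tested genes rose and 0 fell, with a median of 0.71. They were the ligand gene Bmp8b, with 6.77, 4.33 and 10.1 CPM in entinostat tumours against 0.313, 0.952 and 1.27 CPM in control tumours (log2 fold change 3.07 ± 0.64, adjusted p = 0.0252), the latent TGF-beta binding protein gene Ltbp2 (2.05 ± 0.41), Smad3, which carries the TGF-beta signal to the nucleus (1.73 ± 0.38), and the inhibitory Smad6 (2.59 ± 0.60). Among 43 Wnt genes the co-receptor gene Lrp5 (1.33 ± 0.33) and Sfrp2, a secreted Wnt modulator (2.83 ± 0.73), rose. The Notch list gave 3 rises among 26 genes, the ligand Jag2, the receptor Notch2 and the co-activator Maml2, at 0.86 ± 0.19, 1.71 ± 0.45 and 1.58 ± 0.35. Tead1, a DNA-binding partner of YAP1, rose by 1.11 ± 0.25, while Yap1 itself had 21.3, 15.99 and 5.74 CPM in entinostat tumours and 5.21, 4.39 and 2.56 CPM in control tumours and did not pass in edgeR (adjusted p = 0.0745). Of 45 axon guidance genes the receptor genes Plxnd1 (1.70 ± 0.22), Epha2 (1.95 ± 0.46) and the ligand gene Sema6a (2.65 ± 0.49) rose. Plxnd1, a semaphorin receptor of vessels and neurons, had 36.1, 41.0 and 25.7 CPM in entinostat tumours, against 9.77, 11.5 and 10.45 CPM in control tumours. Calcium release and entry genes gave 4 rises among 29: the IP3 receptors Itpr3 and Itpr1, the phospholipase Plcb3 and the cation channel Trpv4. Itpr3 had 21.7, 38.2 and 15.3 CPM in entinostat tumours and 2.96, 5.80 and 1.11 CPM in control tumours (log2 fold change 2.93 ± 0.52, adjusted p = 0.0176). Trpv4 had 13.6, 6.97 and 10.1 CPM in entinostat tumours and 1.12, 1.28 and 0.101 CPM in control tumours (log2 fold change 3.61 ± 0.82, adjusted p = 0.0322). With the replicate block the calls numbered 2 for BMP and TGF-beta (Bmp8b and Ltbp2), 0 for Wnt, 1 for Notch (Jag2), 0 for YAP1 and TEAD, 2 for axon guidance (Plxnd1 and Sema6a) and 1 for calcium (Itpr3). The rises named that lost their call had adjusted p of 0.0510 to 0.0923. With offsets for transcript length the calls numbered 4 for BMP and TGF-beta, 2 for axon guidance, 2 for calcium and 0 for Wnt, Notch and YAP1 and TEAD. Without entinostat library 2 or 3 these lists held 0 calls except axon guidance with 1, and without control library 1 they held 0 except calcium with 1 and axon guidance with 2.

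**Figure D3:**
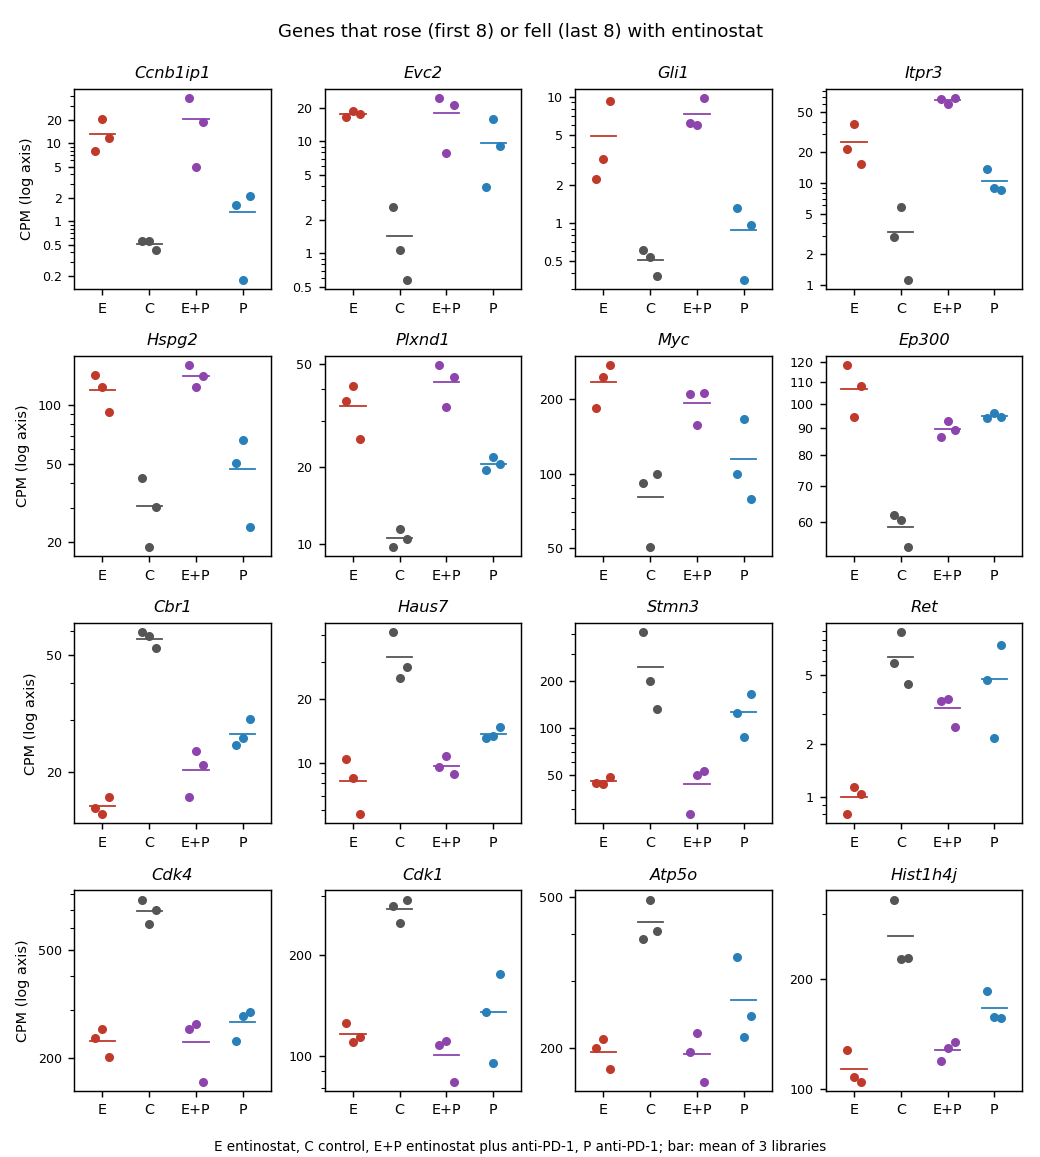
CPM on a log axis in each library for 8 genes that rose and 8 that fell with entinostat, with bars at the means of 3 libraries. In each panel the entinostat libraries do not overlap the control libraries; the combination and anti-PD-1 libraries are shown beside them, and the Cdk4 values of the anti-PD-1 tumours (232 to 296 CPM) lie near those of the entinostat tumours.

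Large single changes also fell outside these groups. Ccnb1ip1, a ubiquitin ligase needed for meiotic crossing over, had the largest log2 fold change among the rises with a mean of at least 1 log2 CPM, with 7.94, 20.2 and 11.7 CPM in entinostat tumours against 0.548, 0.559 and 0.430 CPM in control tumours (log2 fold change 4.68 ± 0.90, adjusted p = 0.0200). Hr, a nuclear receptor co-repressor of skin, rose by 2.93 ± 0.58, the transcription factor genes Runx3, Plagl1 and Elf4 by 2.78 ± 0.57, 2.68 ± 0.59 and 2.66 ± 0.51, and the potassium channel gene Kcnma1 by 2.53 ± 0.64. At the other end, Cbr1, a carbonyl reductase, had the smallest adjusted p of all genes: 15.1, 14.4 and 16.5 CPM in entinostat tumours and 59.4, 57.9 and 52.4 CPM in control tumours, with a log2 fold change of -1.88 ± 0.19 and an adjusted p of 0.00896. Haus7, a subunit of the augmin complex of the mitotic spindle, had 10.4, 8.52 and 5.71 CPM in entinostat tumours and 41.4, 25.3 and 28.3 CPM in control tumours (log2 fold change -1.95 ± 0.28, adjusted p = 0.0104). Prmt2, an arginine methyltransferase, fell by 2.11 (SE 0.36), Mb21d2 by 3.05 (SE 0.54) and the pro-apoptotic BCL2 family genes Bok and Bax by 1.44 and 0.89 (SE 0.27 and 0.19). Runx3, Kcnma1 and Bax did not pass with the replicate block (adjusted p = 0.0511, 0.0756 and 0.0584). Plagl1 and Kcnma1 passed in 0 of the 6 fits that left out a library.

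Entinostat acts on the products of Hdac1, Hdac2 and Hdac3. Of 33 class I HDACs and corepressor partners 2 fell (6.06%, against 3.98% of all tested genes) and 0 rose. The falls were Hdac3, with 69.0, 66.5 and 72.2 CPM in entinostat tumours against 109, 114 and 97.4 CPM in control tumours (log2 fold change -0.62 ± 0.15, adjusted p = 0.0361), and Mbd3, a subunit of the NuRD corepressor (-1.002 ± 0.20). Neither of these passed with the replicate block (adjusted p = 0.0778 and 0.0518) or under upper quartile scaling. Hdac1 had 81.3, 63.1 and 76.9 CPM in entinostat tumours and 98.3, 94.3 and 86.7 CPM in control tumours. Hdac2 had 120.4, 127 and 129.8 CPM in entinostat tumours and 278, 142 and 191 CPM in control tumours. Neither passed (adjusted p = 0.239 and 0.0788). The acetyltransferase gene Ep300, which adds the marks that HDACs remove, rose by 0.87 ± 0.15 (adjusted p = 0.0157), with 118, 94.3 and 108 CPM in entinostat tumours against 61.8, 60.5 and 53.8 CPM in control tumours, and the acetyltransferase Kat8 fell by 0.83 (SE 0.19; adjusted p = 0.0697 with the block). Among 46 chromatin writers, erasers and remodellers the histone methyltransferase genes Kmt2d, Nsd1 and Setd2 and the remodeller gene Chd8 rose, between 0.68 and 1.34, and Smarcb1, a core subunit of the BAF remodelling complex, fell by 0.91 (SE 0.18). The rises were 8.7% of the list, against 1.3% of all tested genes, and the fall 2.17%, against 3.98%. Of the 4 rising genes 0 passed with the replicate block (adjusted p 0.0545 to 0.0685) or with length offsets, where Ep300 was lost too, at a log2 fold change of 0.43. Smarcb1 had an adjusted p of 0.0543 with the block. A list of 22 genes often reported as raised by HDAC inhibitors, 21 of them tested, held 1 rise (4.76%, against 1.3% of all tested genes). The rise was Mt1, at 1.46 ± 0.38 (adjusted p = 0.0937 with the block). The list held 3 falls (14.3%, against 3.98%), the histone genes Hist1h2bk, Hist3h2a and Hist1h1c. Cdkn1a, which encodes the cell cycle inhibitor p21 and is the best known of these, had 9.04, 6.06 and 8.10 CPM in entinostat tumours and 16.4, 5.53 and 2.58 CPM in control tumours, with no detectable difference (log2 fold change -0.08 ± 0.63, adjusted p = 0.953).

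Markers of the other cell types of lung tissue varied between tumours, with 0 calls in edgeR among 15 cell type lists. Their tested members numbered 174 counted over the lists, of which 16 were higher and 1 lower at an unadjusted p under 0.05, and DESeq2 called 8 higher. Of the alveolar markers 15 of 17 had a positive log2 fold change with a median of 1.49. This median was 4.29 without control library 2, 2.27 with the replicate block, and 0.95, 0.93 and 0.95 without entinostat library 1, control library 1 or control library 3. Their summed level was 210.1 to 780 CPM in entinostat tumours and 68.9 to 512 CPM in control tumours. Sftpc, the surfactant gene that defines alveolar type 2 cells, had 237, 127 and 32.8 CPM in entinostat tumours, against 0.0979, 201 and 0.557 CPM in control tumours, so that it was near 0 in control libraries 1 and 3 alone among the 6. The 9 tested neutrophil markers were all positive with a median of 1.75 (3.20 without control library 2). In 5 every entinostat library was above every control library, where 28.8% of all tested genes did not overlap in either direction. With the untested Ngp, the neutrophil markers summed to 67.9, 23.9 and 24.2 CPM in entinostat tumours and 0.881, 25.9 and 3.04 CPM in control tumours. The 8 cytotoxic and NK cell markers had a median of 1.31, which was 0.20 without entinostat library 1 and 2.35 without control library 2. They are the tested part of 13 listed, as Gzmb, Gzmk, Nkg7, Ncr1 and Ifng had too few counts. All 13 summed to 5.19, 2.17 and 2.20 CPM in entinostat tumours and 1.55, 3.35 and 0.709 CPM in control tumours, low levels that overlap. With the mean alveolar marker level as a covariate 0 genes were called for entinostat against control, with 2792 at an unadjusted p under 0.05. The respiratory chain median was then -0.88, the replication median -0.48, the matrix median 1.05, and the neuronal cytoskeleton median -0.07. The part of adjoining lung in these results was not otherwise tested. Immune lists for antigen presentation, interferon response, checkpoints and chemokines, 97 tested members in 5 lists, also had 0 calls, with 5 higher and 2 lower at an unadjusted p under 0.05 and 2 higher and 1 lower in DESeq2. Foxp3, the regulatory T cell factor, had 12.4, 13.03 and 13.8 CPM in entinostat tumours and 24.7, 13.4 and 17.99 CPM in control tumours (adjusted p = 0.283). Control library 1, with the highest Foxp3 value of the 6, had 0 counts of the T cell gene Cd3e, as did entinostat libraries 1 and 3. Control library 1 also had the lowest mean log2 CPM of the T cell markers among the 6, at -1.99. The Foxp3 level is therefore not read as a level of regulatory T cells. Cd274, which encodes the PD-1 ligand PD-L1, had 4.73, 3.92 and 3.79 CPM in entinostat tumours and 1.29, 3.93 and 3.52 CPM in control tumours (adjusted p = 0.499).

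**Figure D4:**
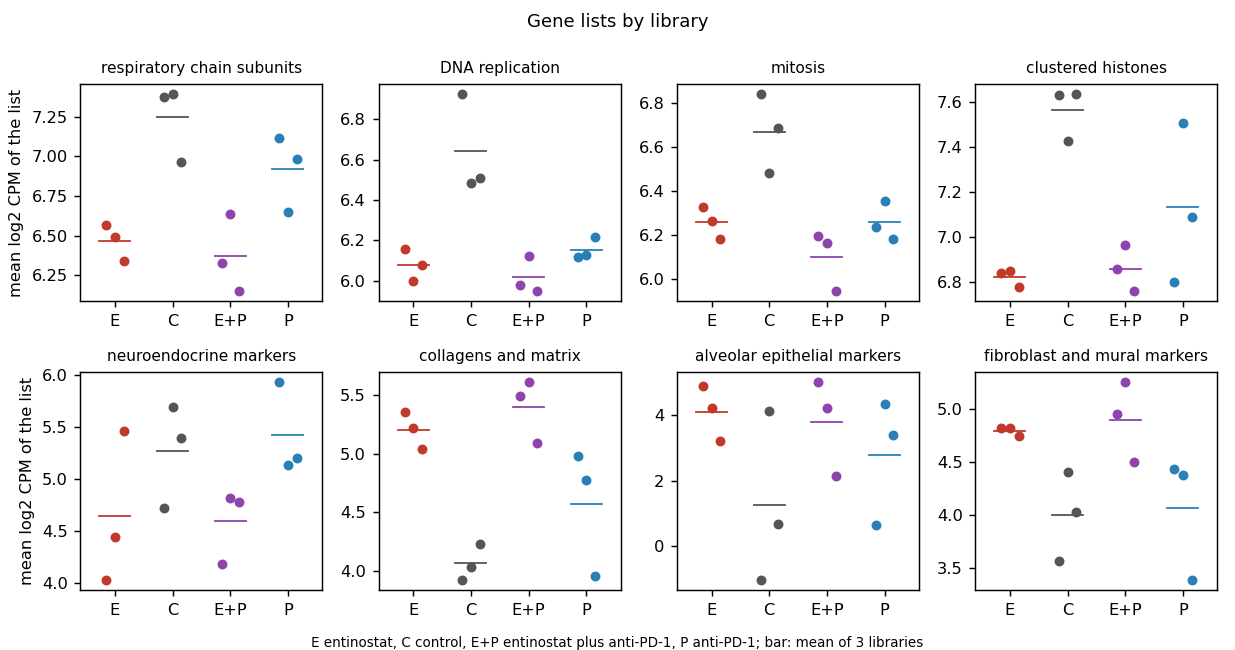
Mean log2 CPM of the tested members of 8 gene lists in each library, with bars at the means of 3 libraries. Respiratory chain, replication, mitosis and histone levels are lower in all 3 entinostat libraries than in all 3 control libraries and matrix and fibroblast levels are higher, while the alveolar markers and the neuroendocrine markers overlap between the groups.

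The changes ran with transcript length. When 17235 tested genes with a length were ranked by their longest annotated GENCODE transcript, the median log2 fold change was -0.14, -0.14, -0.03 and 0.22 from the shortest to the longest quartile. Genes called lower made up 7.38%, 4.87%, 3.06% and 0.743% of these quartiles, and genes called higher 0.743%, 0.557%, 0.998% and 2.83%. The longest transcript had a median of 5150 bases among genes called higher, 2088 bases among genes called lower and 3164 bases among all tested genes. By list the medians were 595 bases for clustered histones, 1232 for the respiratory chain, 1883 for the proteasome, 2988 for replication, 3435 for mitosis, 6450 for collagens and matrix and 7124 for chromatin genes. A refit with offsets that remove each library's trend with length called 492 genes, 87 higher and 405 lower, of which 457 were among the 919. The list medians became -0.75 for the respiratory chain, -0.84 for histones, -0.60 for replication, -0.51 for mitosis, 0.83 for matrix and 0.03 for chromatin genes. With these offsets and the replicate block together 0 genes were called, with 3457 at an unadjusted p under 0.05.

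**Figure D5:**
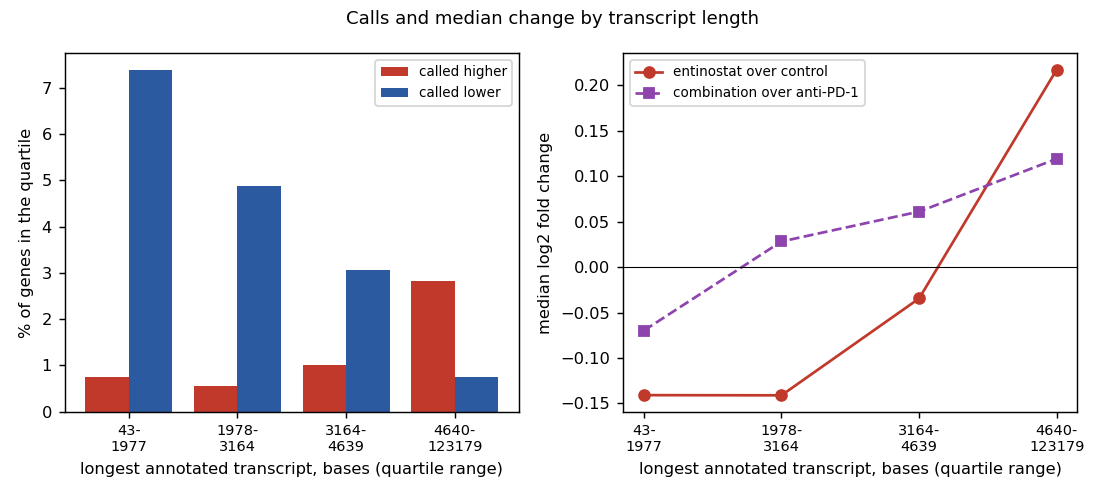
Share of genes called higher or lower with entinostat (left, % of the quartile) and median log2 fold change (right) in quartiles of the longest annotated transcript. Called falls drop to 0.743% of the longest quartile and the median of entinostat over control reaches 0.22 there; combination over anti-PD-1, from other libraries, was at -0.07 in the shortest quartile and 0.12 in the longest.

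The same drug was measured a second time, against another background, in the combination and anti-PD-1 tumours. These 6 libraries include none of the entinostat or control libraries, although the fit shares its estimate of spread over all groups. Combination against anti-PD-1 called 0 genes in edgeR (0%), with 2168 genes (12.4%) at an unadjusted p under 0.05, and DESeq2 called 424. Of the 919 genes called for entinostat against control, 861 (93.7%) had the same sign here, against 70.9% of all tested genes, and 407 (44.3%) had the same sign with an unadjusted p under 0.05. In this second comparison the 226 higher genes had a median log2 fold change of 0.77 and the 693 lower genes one of -0.42. Genes with changes of a like size in both included Ccnb1ip1 (3.98 ± 0.86 here), Itpr3 (2.64 ± 0.51), Gli1, Bmp8b and Scg5. Itpr3 had 67.7, 59.3 and 68.8 CPM in combination tumours and 13.7, 9.00 and 8.61 CPM in anti-PD-1 tumours. Gli1 had 6.17, 5.94 and 9.78 CPM in combination tumours, against 1.30, 0.353 and 0.967 CPM in anti-PD-1 tumours. Scg5 had 19.2, 26.9 and 21.8 CPM in combination tumours and 112, 55.7 and 82.0 CPM in anti-PD-1 tumours. The list medians were -0.55 for the respiratory chain, -0.39 for histones, -0.20 for mitosis, -0.09 for replication, -0.68 for neuroendocrine markers and 0.72 for collagens and matrix. The test of the difference between the 2 entinostat effects, alone and on top of the antibody, called 0 genes in edgeR, with 1052 at an unadjusted p under 0.05.

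Entinostat tumours were also set against anti-PD-1 tumours, which avoids the control libraries. It reuses the entinostat libraries that chose the genes, so the values lean the same way in part through them. This called 0 genes in edgeR (0%), with 1532 at an unadjusted p under 0.05, and 145 in DESeq2. The 226 higher genes had a median of 0.64 here and the 693 lower genes a median of -0.38, against 0.00037 over all tested genes. Among them 121 of the 226 had every entinostat library above every anti-PD-1 library and 308 of the 693 had every one below, against 1420 and 1481 of all 17426 genes. For several genes the anti-PD-1 tumours lay nearer to the entinostat than to the control tumours. Cdk4 had 232, 287 and 296 CPM in anti-PD-1 tumours, and Lars2 had 115, 90.4 and 76.7 CPM there, within or below its entinostat range of 103 to 130.3 CPM. Ret, at 4.71, 2.19 and 7.40 CPM, Stmn3, at 125, 87.4 and 166 CPM, and Ccnb1ip1, at 1.60, 0.176 and 2.12 CPM, lay instead outside the entinostat range in every anti-PD-1 library. The list medians for entinostat against anti-PD-1 were -0.05 for replication and 0.0075 for mitosis, against -0.52 for the respiratory chain, -0.43 for histones and 0.50 for collagens and matrix. Among the genes called for entinostat against control, 137 of the 226 higher had every anti-PD-1 library above every control library, and 491 of the 693 lower had every one below. Over all 17426 tested genes the anti-PD-1 libraries lay wholly on one side of the control libraries in 3044. The counts share the control libraries with the comparison that chose the genes, so nothing is read from them.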

How the data were processed

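Poly(A) RNA from frozen lung tumours was sequenced in 12 libraries of 4 groups, all with the same batch label. The authors deposited raw read counts per gene in 1 table, used here as deposited; the submitters' processing notes name the aligner STAR 2.5.4a with the mm9 build, the trimmers Trimmomatic 0.36 and Trim Galore, and DESeq2 1.22.2 under R 3.5.1, with no gene annotation or strand setting. In each library 65.3% to 77.2% of the counts above 0 were even numbers, and halving the counts was tried as an alternative. The title of the combination libraries names both agents while their treatment label names the antibody alone; the title was followed. Samples of normal lung were not analysed here.

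Counts of all 12 libraries were fitted together, so that the groups share 1 estimate of spread, with edgeR 4.0.16 in R 4.3.3: filterByExpr, TMM factors, a robust quasi-likelihood fit and Benjamini-Hochberg adjustment over all tested genes at 0.05. Log2 fold changes are entinostat minus control, and the SE is the log2 fold change divided by the square root of F. Log2 CPM used a prior count of 2. A two-sided exact permutation test of 3 libraries against 3 cannot go below a p of 0.1 and was not used. Genes were named by a rule: the 20 largest rises and falls with a mean of at least 1 log2 CPM and no overlap between groups, up to 5 called members of each of 67 gene lists by smallest adjusted p (otherwise up to 3 by level), and a few fixed genes such as Myc and the HDACs, of which 1 is not reported here. The members and lists were chosen with earlier results of these data known. Transcript lengths are from GENCODE M21 and promoters from RefSeq on GRCm38.p6, both matched by symbol; no coordinates were carried between builds. The fit was tested on simulated data.

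Replicate numbers in the titles were looked at as pairs. The deviations of same-numbered entinostat and control libraries from their group means correlated at 0.176, 0.166 and 0.195, against -0.139 to -0.0557 for the other pairings. Deviations from a mean of 3 libraries sum to 0 in each gene, so positive values for same-numbered libraries push the others negative. The correlations therefore cannot settle whether the numbers pair the libraries, and no label says so. The main fit has no replicate block. Its 919 calls, and the fold changes, SE and adjusted p given without a setting, take no account of any pairing. The fit with the replicate block is given where it changes a call. The alternatives were RLE and upper quartile factors, other filters, DESeq2 1.42.0, the 6 libraries alone, the alveolar marker level as a covariate, counts without structural RNAs and each library left out. Length offsets and the combinations of the replicate block with them or with the 6 libraries were added after the data had been seen.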

Additional observations from a re-analysis of the deposited data

How the results depend on the processing

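The number of genes called for entinostat against control was 919, with 226 higher and 693 lower, and the alternatives moved it as follows. It was 561 with upper quartile factors (325 higher, 236 lower), 321 with the replicate block (69 and 252), 492 with length offsets (87 and 405) and 2396 with DESeq2 (867 and 1529), and 0 with the 6 libraries alone, with the alveolar covariate, with length offsets and the replicate block, or with the 6 libraries and the block; these 4 fits had 3581, 2792, 3457 and 3772 genes at an unadjusted p under 0.05. Leaving out 1 library gave 2 to 1010 calls, 1 to 225 of them higher and 1 to 785 lower; without entinostat library 3 the calls were Cbr1 and Plxnd1, and Cbr1 and Plxnd1 were also the genes that passed in all 6 such fits, while 148 passed in none. RLE factors, both other filters, halved counts and counts without structural RNAs gave 757 to 974. The causes of these shifts were not tested. Combination against anti-PD-1 went to 424 calls with DESeq2 and to 1 with the alveolar covariate, Col11a1 at 2.95, and entinostat against anti-PD-1 to 145 with DESeq2.

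Of 135 named genes past the threshold, 129 stayed past it with RLE factors, 100 with upper quartile factors, 70 with the replicate block, 78 with length offsets, 135 with DESeq2 and 0 in the 4 fits without calls. Hdac2 passed without control library 2 and in DESeq2, and Yap1 in DESeq2. Signs turned in 3 of the named genes that had not passed. With 1 library left out, Rb1 ranged between -0.36 and 0.095, Neurod1 between -2.69 and 2.24 and Cdkn1a between -0.51 and 0.93. Rb1 was at 0.067 with upper quartile factors, and Neurod1 at 2.58 with the alveolar covariate and 0.22 in the 6 libraries with the block. Cdkn1a was at 0.17 with upper quartile factors, 0.71 with the alveolar covariate, 0.019 with length offsets, 0.053 with these and the block, and 0.31 in the 6 libraries with the block.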
